A study of Ovis aries with 32 samples.

Results

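Lipolysis is the stepwise hydrolysis of the triglyceride stored in a fat cell's lipid droplet. Noradrenaline and adrenaline act on beta-adrenergic receptors, whose G protein switches on adenylyl cyclase, and the cyclic AMP (cAMP) that is formed activates protein kinase A. The kinase phosphorylates perilipin on the droplet and hormone-sensitive lipase, and adipose triglyceride lipase, hormone-sensitive lipase and monoglyceride lipase then each remove a fatty acid in turn, leaving glycerol. Alpha-2 adrenergic receptors act the opposite way and lower cAMP. In the newborn lamb, perirenal fat is a depot known for heat production, which is fuelled by this reaction.

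The genes examined here were 9 lipolysis and adrenergic genes, chosen by name: LIPE, PNPLA2, MGLL, ABHD5, G0S2, AQP7, ADRB1, ADRB3 and ADRA2A. A row of that name was found for 6 of the 9, with 11 transcripts, in a table of 21271 genes. G0S2, an inhibitor of adipose triglyceride lipase, AQP7, a glycerol channel, and ADRB1, the beta-1 adrenergic receptor, had no row of that name and were not analysed here. On the Oar_rambouillet_v1.0 sheep genome, LIPE (ENSOARG00020019526) lies on chromosome 14 from 54061580 to 54072858, PNPLA2 (ENSOARG00020011721) on chromosome 21 from 52263572 to 52268290 and ADRB3 (ENSOARG00020020243) on chromosome 26 from 36182437 to 36185129. MGLL (ENSOARG00020017820) and ABHD5 (ENSOARG00020023264) both lie on chromosome 19, the former from 61694708 to 61780327 and the latter from 16584321 to 16621969, and ADRA2A (ENSOARG00020017093) lies on chromosome 22 from 34728279 to 34729682.

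The 32 libraries were made from perirenal preadipocytes, the cells that can turn into fat cells, of near-term sheep fetuses, before and after differentiation in culture. The 8 groups of 4 libraries were control males (MC), control females (FC), growth-restricted males (MFGR) and growth-restricted females (FFGR), and the same 4 origins after differentiation (MCD, FCD, MFGRD and FFGRD). All fetuses were singletons of crossbred Columbia-Rambouillet ewes. Growth restriction was brought about by keeping the ewe in a hot environment during earlier gestation, which impairs the placenta, and the control ewes were kept at a normal temperature and pair-fed. The model therefore carries the heat exposure together with the small size, and these cannot be told apart. The labels give each fetus's sex and treatment, and do not say whether replicate libraries came from separate fetuses, so p-values measure the spread between these libraries.

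Values are normalized reads, the authors' DESeq2-scaled reads per transcript summed for each gene. Their sums ran from 9520000 to 21220000 per library, and 1 read was worth between 0.698 and 1.792, so a value of 10 stood for 5.6 to 14.3 reads. The levels of different genes were not compared, since these values are not divided by transcript length. All 6 detected adipocyte markers (ADIPOQ, PLIN1, FABP4, CIDEC, CEBPA and PPARG) rose with differentiation, from summed values of 62.8 to 1365 in preadipocytes to 341 to 183668 in differentiated cells. The differentiated libraries were unequal: ADIPOQ, the fat cell hormone adiponectin, was 8.59 in FCD replicate 4 and 13421 in MCD replicate 3. Of the 6 tested preadipocyte and fibroblast markers, THY1 was called higher after differentiation (1.65 on the log2 scale), PDGFRB was called lower (-0.82), and PDGFRA, COL1A1, COL3A1 and CD34 were not called, with summed values of 110904 to 1202283 before and 74305 to 906249 after. PDGFRA was 935 or higher in every library, and the 7th marker, DLK1, never exceeded 2.34 and was not tested. All 4 adrenal cortex markers were also higher after differentiation (summed values of 1.39 to 89.0 before and 12.8 to 2037 after), as were UCP1 and PPARGC1A, 2 of 3 detected brown adipocyte markers (summed values of 46.4 to 230.5 before and 41.9 to 1413 after). CIDEC, CYP11A1, CYP17A1, HSD3B1, UCP1 and the macrophage marker CD163 could be tested only through the differentiated libraries, and endothelial KDR only through the preadipocyte libraries, so the direction of their change was built in. For macrophages and leukocytes CD163 was higher and CD68 lower (39 to 976 summed over all libraries), and muscle DES and endothelial KDR were lower. Neither mesothelial marker was called, and the erythroid markers summed to at most 7.20. The part of these cells in the results below was not tested, and in bulk libraries fewer fat cells and less RNA per fat cell cannot be told apart.

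LIPE, which encodes hormone-sensitive lipase, showed the widest change with differentiation among the 5 of these genes that were tested, on the log2(value + 1) scale described below. In the male controls it stood at 12.2, 2.03, 13.3 and 7.17 normalized reads in MC 1 to 4 and at 169, 2207, 1586 and 1185 in MCD 1 to 4. In the female controls it stood at 28.9, 0, 3.98 and 10.8 before and at 271, 157, 329 and 8.46 after. In the control males every differentiated library was above every preadipocyte library, and in the control females FCD replicate 4 fell within the preadipocyte range. In growth-restricted males LIPE was 11.2, 20.6, 1.24 and 19.0 before and 1750.1, 64.6, 167 and 31 after. In growth-restricted females it was 25.5, 0, 13.2 and 3.03 before and 1517, 146, 1498 and 32.2 after. The groups did not overlap in either growth-restricted origin, but within each of them the differentiated libraries differed by more than an order of magnitude. Over all origins, 15 of 16 differentiated libraries were above the highest preadipocyte library, which stood at 28.9.

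PNPLA2, which encodes adipose triglyceride lipase, was already present in preadipocytes, at 103 to 316 in all 16 libraries. In MC 1 to 4 it was 103, 122, 171 and 120.4, and in MCD 1 to 4 it was 428, 5379.8, 1617 and 1947. In FC it was 311, 134, 110.3 and 132, and in FCD it was 713, 797, 779 and 166. FCD replicate 4 was again the low library of its group and the other FCD libraries lay close together. In MFGR it was 167, 131, 145 and 148, and in MFGRD it was 2357, 366, 474 and 232. In FFGR it was 316, 149, 144 and 121, and in FFGRD it was 1959.6, 629.6, 4835 and 195. The ratio of the highest to the lowest library was 3.07 in preadipocytes and 32.3 in differentiated cells, and 13 of 16 differentiated libraries were above the highest preadipocyte value.

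ABHD5, also called CGI-58, is the coactivator that adipose triglyceride lipase needs and that perilipin 1 holds back in the resting cell. Its preadipocyte values were 46.5, 64.0, 69.0 and 98.1 in MC, 61.7, 110.0, 43.6 and 68.2 in FC, 90.4, 101, 73.5 and 98.3 in MFGR and 82.4, 101, 94.6 and 85.7 in FFGR. After differentiation they were 97.8, 339, 747 and 361 in MCD and 121, 142, 126 and 82.2 in FCD. They were 358, 87.1, 67.6 and 60.4 in MFGRD and 332, 119.9, 890.2 and 85.7 in FFGRD. In MFGRD replicate 1 alone stood above the MFGR libraries, and in 10 of 16 differentiated libraries the value passed the highest preadipocyte value of 110.0.

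MGLL, which encodes monoglyceride lipase, the enzyme of the last step, varied widely before differentiation, between 2.98 and 103. It was 8.55, 20.9, 2.98 and 19.8 in MC and 21, 199, 114 and 112 in MCD. It was 50.5, 31.6, 21.8 and 37.3 in FC and 45.0, 37.2, 48.0 and 12.8 in FCD. The MCD libraries lay above the MC libraries, with 21 against 20.9 at the boundary, while the FC and FCD ranges overlapped. In MFGR it was 24.3, 10.7, 53.5 and 14.5 and in MFGRD 287, 12.6, 45.1 and 2.59. In FFGR it was 16.4, 80.3, 103 and 28.5 and in FFGRD 117, 19.7, 582 and 8.30. The growth-restricted groups overlapped in both sexes, and 6 of 16 differentiated libraries were above the highest preadipocyte value.

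ADRB3, the beta-3 adrenergic receptor, which couples to adenylyl cyclase in fat cells, was at or under 3 reads in 15 of 16 preadipocyte libraries. It was listed at 0 in all 4 MC and all 4 MFGR libraries, was 12.3 in FC replicate 1 and 0 in the other FC libraries, and was 2.55, 0, 2.82 and 0.757 in FFGR. After differentiation it was 8.94, 145, 93.7 and 81.2 in MCD and 20.4, 6.74, 34.3 and 0 in FCD. It was 294, 1.67, 6.18 and 0.860 in MFGRD and 111, 6.22, 411 and 0 in FFGRD. The receptor reached 10 in 8 differentiated libraries, MCD 2 to 4, FCD 1 and 3, MFGRD 1 and FFGRD 1 and 3, while 4 of 16 differentiated libraries were at or under 3 reads. Taking each MC library at its floor of 3 reads, the median of MCD was at least 26-fold higher, a bound that covers counting error only. For MFGR, also at 0 throughout, the same bound for MFGRD was 1.23-fold, and 2 of the 4 MFGRD libraries were above the highest floor.

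ADRA2A, the alpha-2A adrenergic receptor, which opposes the beta receptors, was at or under 3 reads in 15 of 16 preadipocyte and 14 of 16 differentiated libraries. Its highest values were 20.6 in FFGR replicate 1 and 20.5 in MCD replicate 2. No differentiated library was above the highest preadipocyte library. A difference with differentiation was not detectable at this depth, and ADRA2A passed the filter on low values in none of the comparisons.

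**Figure D1:**
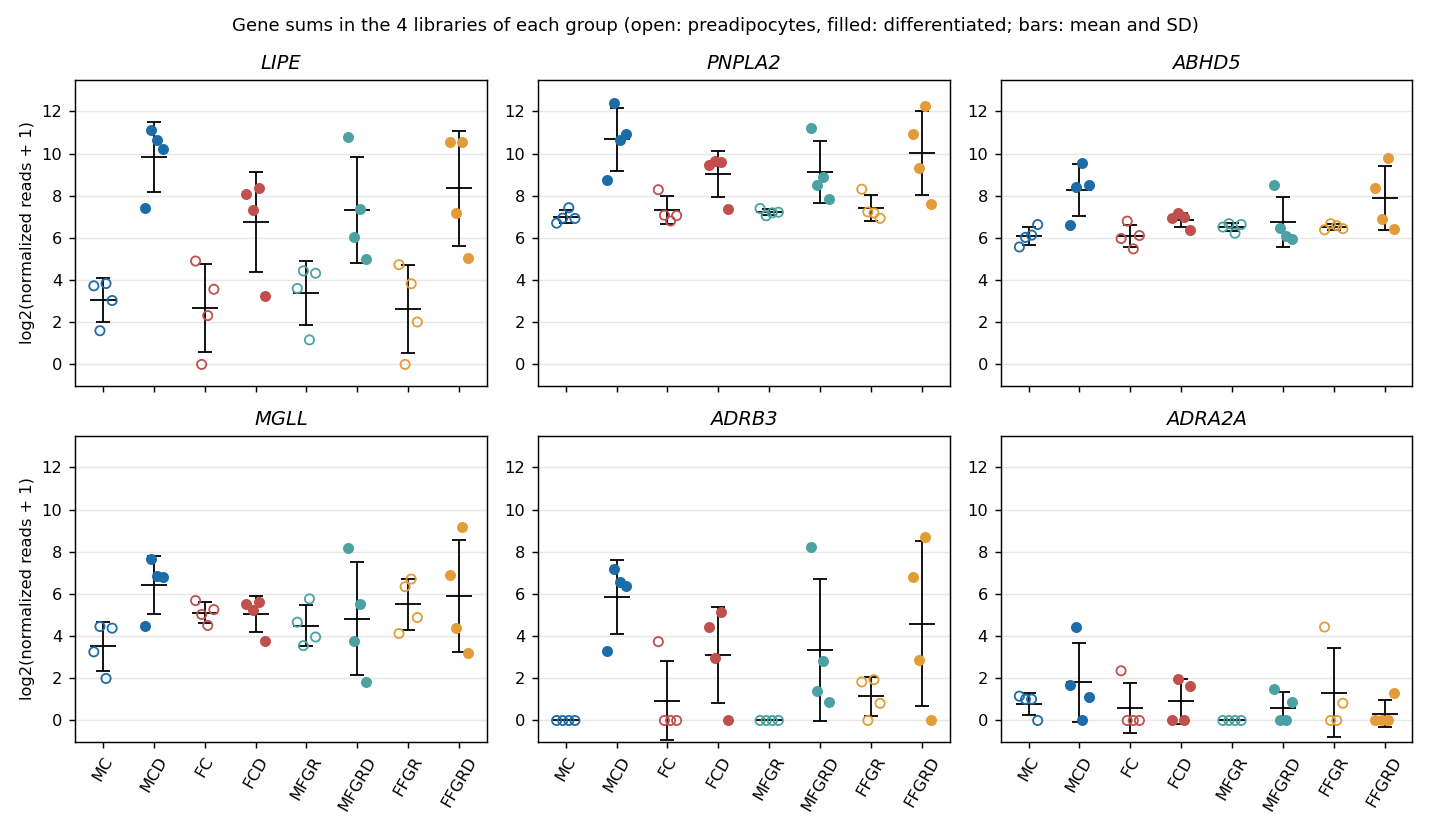
Values of the 6 genes by library, as log2(normalized reads + 1), in the 8 groups; each point is a library, open before and filled after differentiation, and the bars give the mean and SD of 4 libraries. LIPE and PNPLA2 sit higher after differentiation with FCD replicate 4 lowest in its group, ADRB3 leaves the baseline in some differentiated libraries, and ADRA2A stays near 0 in both stages.

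The first question of the design was what changed with differentiation within each origin, tested with limma on log2(value + 1). A gene entered the test if 4 or more of the 8 libraries reached 10, and was called at a Benjamini-Hochberg adjusted p under 0.05 and a fold change over 1.5. In the male controls LIPE rose by 6.79 on the log2 scale (SE 0.81, adjusted p = 0.00205, n = 4 and 4 libraries). PNPLA2 rose by 3.68 (SE 0.63, adjusted p = 0.00899) and ABHD5 by 2.18 (SE 0.55, adjusted p = 0.0427). MGLL was 2.92 higher (SE 0.78, adjusted p = 0.05001) and was just outside the threshold. The count of genes called was 3 of 4 tested, where 7.53% of the 11605 genes tested were called and 3.33% were called higher. The groups did not overlap for LIPE, PNPLA2 and MGLL, as was so for 7.59% of genes in this direction. LIPE and MGLL reached 10 in 2 of the 4 MC libraries and passed the filter only with MCD, so a rise was built into their being tested and the count is a description. PNPLA2 and ABHD5 reached 10 in every MC library.

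The labels do not say whether replicate numbers pair the libraries. In male controls they were taken as pairing, where 3 of 4 correlated best with their own number and replicate 2 did not (r = 0.162). With the number as a block MGLL was called as well (adjusted p = 0.0135), which made 4 of 4. With the block 1854 of the 11605 genes tested were called, against 874 without it. The ABHD5 call rested on the full set of libraries. Leaving out MC replicate 1, 2, 3 or 4 or MCD replicate 2, 3 or 4 ended it, with estimates of 1.76 to 2.73 over all omissions, and so did a filter of 20 CPM in 3 libraries (adjusted p = 0.0619) and a term for span slope (1.73, adjusted p = 0.121). Span slope is the slope of a library's log2 values on the log2 genomic span of the genes, a measure of how a library treats long genes. Without MCD replicate 1, the MCD library with the least ADIPOQ, MGLL was called too (3.58), as were 1746 genes in all. ADRB3 reached 10 in 3 libraries and was not tested. With no filter on low values its estimate was 5.86 (SE 0.79, adjusted p = 0.00334), which depends on the pseudocount since all MC libraries were at 0.

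In the other 3 origins none of the 4 genes tested was called. The estimates for LIPE were 4.06 (SE 1.32, adjusted p = 0.239) in control females, 3.92 (SE 1.24, adjusted p = 0.149) in growth-restricted males and 5.70 (SE 1.46, adjusted p = 0.0839) in growth-restricted females. Those for PNPLA2 were 1.73 (SE 0.56, adjusted p = 0.241), 1.91 (SE 0.63, adjusted p = 0.174) and 2.61 (SE 0.91, adjusted p = 0.196) in the same order. Both genes had an unadjusted p under 0.05 in each of these origins, and the limma calls over all genes amounted to 0.43%, 3.38% and 2.67% of genes tested. LIPE and PNPLA2 did not overlap between MFGRD and MFGR (4.84% of genes in this direction did not), nor LIPE between FFGRD and FFGR (5.01%). LIPE reached 10 in 2 FC, 3 MFGR and 2 FFGR libraries and passed the filter only with the differentiated libraries. A rise was thus built into its being tested, and its values in these origins are a description. PNPLA2 reached 10 in every preadipocyte library. For ABHD5 the estimates were 0.78 (SE 0.37), 0.24 (SE 0.55) and 1.37 (SE 0.69), and for MGLL they were -0.08 (SE 0.51), 0.34 (SE 1.21) and 0.40 (SE 1.26). Without MFGRD replicate 1 the last 2 estimates of the growth-restricted males changed sign (ABHD5 -0.34, MGLL -0.77), and without FFGRD replicate 3 that of MGLL in growth-restricted females was -0.69. Replicate numbers were also taken as pairing the libraries of control females. There the block left LIPE (adjusted p = 0.171) and PNPLA2 (adjusted p = 0.133) uncalled. The same was done in growth-restricted males, where PNPLA2 was called with the number as a block (adjusted p = 0.0441). With that block 2081 of the 11624 genes tested were called, against 393 without it. With no filter ADRB3 was 2.19 (SE 1.22, adjusted p = 0.546), 3.34 (SE 1.37, adjusted p = 0.339) and 3.44 (SE 1.68, adjusted p = 0.397) higher in the 3 origins.

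Over the 4 origins in 1 limma fit of all 32 libraries, LIPE rose by 5.12 (SE 0.69, 95% interval 3.70 to 6.54, adjusted p = 1.6e-06). PNPLA2 rose by 2.48 (SE 0.39, adjusted p = 1.2e-05) and ABHD5 by 1.14 (SE 0.29, adjusted p = 0.00327). ADRB3 was 3.71 higher (SE 0.75, adjusted p = 0.0003). MGLL was 0.90 higher (SE 0.55, 95% interval -0.22 to 2.02, adjusted p = 0.225) and was not called. ADRB3 reached 10 in 8 differentiated libraries and 1 preadipocyte library, so a rise was built into its being tested and it is set apart. Of the other 4 genes 3 rose, where 27.2% of the 12737 genes tested were called, 12.4% higher and 14.8% lower. With ADRB3 the number called was 4, and it was 4 whichever single library was left out. The ADRB3 estimate was 5.76 with a pseudocount of 0.1 and 1.85 with a pseudocount of 10.

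**Figure D2:**
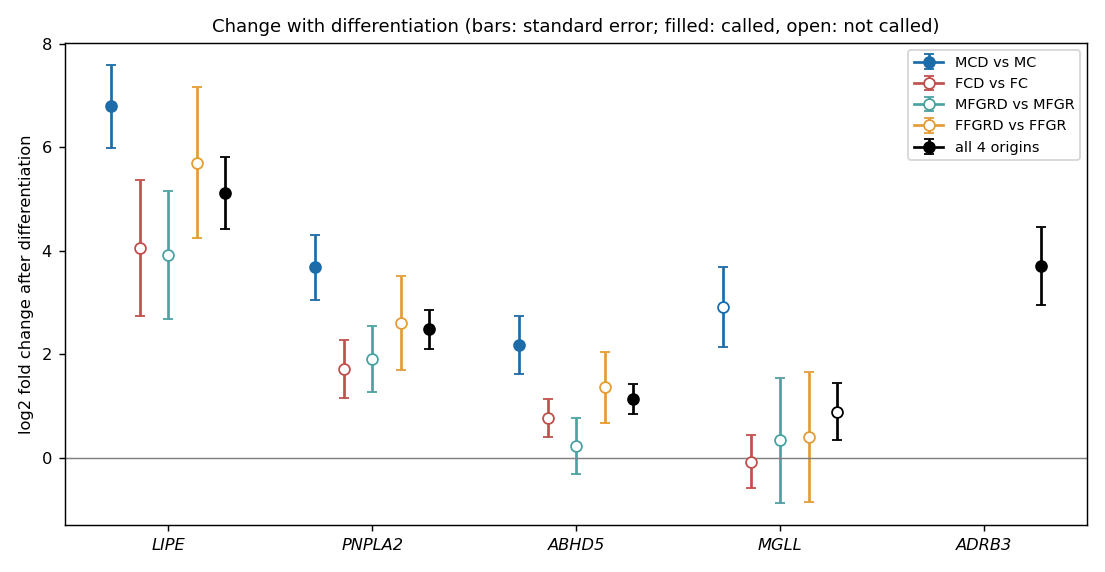
Log2 fold change with differentiation, on the log2(normalized reads + 1) scale, for the 5 genes tested in at least 1 fit, in each origin and over the 4 origins; bars are standard errors, filled points were called and open points were not. LIPE is highest in every origin, from 3.92 to 6.79. The MGLL bars of single origins other than the male controls cross 0, and over the 4 origins MGLL is 0.90 (SE 0.55). Of the fits shown, ADRB3 was tested only in that of all 32 libraries.

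The second question was whether growth restriction or sex altered these genes. Of the 8 comparisons between groups of the same stage, none called any of these genes or any other gene at the threshold by limma, so the percentage called was 0 throughout. An unadjusted p under 0.05 was reached by 4 tests of the members. MGLL was 1.60 lower in MC than in FC on the log2 scale (SE 0.61, unadjusted p = 0.0279, adjusted p = 1.00), with all 4 MC libraries below all 4 FC libraries, as for 0.629% of genes. MGLL reached 10 in 2 of the 4 MC libraries and passed the filter only with FC. A lower value in MC was thus built into its being tested, and this difference is a description. After differentiation LIPE was 3.09 higher in MCD than in FCD (SE 1.15), ABHD5 was 1.41 higher (SE 0.55) and ADRB3 was 2.73 higher (SE 1.19). Each of these had an adjusted p of 0.873 by limma. LIPE reached 10 in 3 FCD libraries and ADRB3 in 2, so both passed the filter only with MCD. A higher value in MCD was therefore partly built into their being tested. The comparison of MCD with FCD shares its MCD libraries with that of MCD with MC. The MGLL difference between MC and FC likewise rests on the MC libraries from which the MGLL change in MCD was measured. Differentiated growth-restricted males had lower estimates than MCD for all 5 genes, at -2.54 for LIPE (95% interval -5.22 to 0.14), -1.56 for PNPLA2 (-3.45 to 0.33), -1.62 for MGLL (-4.35 to 1.11), -1.52 for ABHD5 (-3.10 to 0.05) and -2.52 for ADRB3 (-5.91 to 0.88). Differentiated growth-restricted females had higher estimates than FCD for the same 5 genes, at 1.59 for LIPE (-1.78 to 4.97) and 1.00 for PNPLA2 (-1.18 to 3.17), and no adjusted p was under 0.99. The 5 genes moved together over the 16 differentiated libraries (pairwise r of 0.86 to 0.97), so a shared direction is not 5 separate results. MGLL reached 10 in 3 MFGRD libraries and ADRB3 in 1, so both passed the filter only with MCD. LIPE passed it only with FFGRD in the female comparison.

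Pooled over sex in the 32-library fit, the estimate for growth restriction in preadipocytes was 0.14 for LIPE (95% interval -1.87 to 2.15) and 0.16 for PNPLA2 (-0.96 to 1.28). In differentiated cells the estimates were -0.47 for LIPE (-2.48 to 1.53), -0.28 for PNPLA2 (-1.40 to 0.84) and -0.53 for ADRB3 (-2.69 to 1.63). These intervals span changes of several-fold in either direction for LIPE and ADRB3. Males against females in differentiated cells gave 1.02 for LIPE (-0.98 to 3.03) and 0.37 for PNPLA2 (-0.75 to 1.495). The growth-restricted male response, the change with differentiation in MFGR minus the mean change in the other 3 origins, was -1.60 for LIPE (-4.88 to 1.68), -0.77 for PNPLA2 (-2.59 to 1.06), -0.74 for MGLL (-3.33 to 1.84), -1.21 for ABHD5 (-2.59 to 0.18) and -0.49 for ADRB3 (-4.02 to 3.04). No adjusted p for this difference in response was under 0.99, and none of the 5 genes had an unadjusted p under 0.05 for it. No contrast set the response of MC alone against that of the other origins. Whether the change called in MCD against MC was particular to that origin was therefore not tested.

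The wide spread of the differentiated libraries was shared by these genes. The 16 libraries fell into 2 sets, 6 with ADIPOQ above 5000 (MCD 2 to 4, MFGRD 1 and FFGRD 1 and 3) and 10 below it. This division was made after the values were seen. The first set held the 6 highest values of each of LIPE, PNPLA2, MGLL, ABHD5 and ADRB3. The share of all genes for which this held was not computed. LIPE spanned 8.46 to 2207, a 261-fold range over the 16 libraries, MGLL a 225-fold range and ABHD5 a 14.7-fold range. The set with high values held libraries of 3 origins, and FCD had none in it.

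Correlations were taken within each set, over 40 relations in all. Among the 10 libraries with less adiponectin, 6 of the 10 pairs of the genes LIPE, PNPLA2, MGLL, ABHD5 and ADRB3 were related by both measures after adjustment (permutation tests, two-sided). ADIPOQ still ran from 8.59 to 2356 in these libraries, and the share of all gene pairs related in this way was not computed. The count is therefore a description and is not shown to be particular to these genes. LIPE and ADRB3 had r = 0.94 (adjusted permutation p = 0.0016) and rho = 0.94 (adjusted permutation p = 0.0072), and r = 0.99 once the 2 libraries most distant from the LIPE median were omitted. LIPE and PNPLA2 had r = 0.93 (adjusted permutation p = 0.0016) and rho = 0.79 (adjusted permutation p = 0.039), and r = 0.89 with those 2 omitted. The relations with ADRB3 in this set rest on low values. It reached 10 only in FCD replicates 1 and 3 (20.4 and 34.3) and was at or under 3 reads in 4 of the libraries. ADIPOQ was related to LIPE (r = 0.94, rho = 0.85, adjusted permutation p = 0.0016 and 0.024) and r was 0.87 when the 2 libraries most distant from the ADIPOQ median, FCD replicate 4 among them, were omitted. With ABHD5 no relation held by both measures in this set, the r with LIPE being 0.60. Among the 6 libraries with most adiponectin, 1 of the 10 pairs was related, MGLL with ADRB3 (r = 0.97, rho = 1.00, adjusted exact permutation p = 0.0079 and 0.024), and LIPE and ADIPOQ gave r = -0.24. Span slope, over all 16 libraries, was related by both measures to PNPLA2 (r = -0.69, rho = -0.55, adjusted permutation p = 0.0032 and 0.033) and ABHD5 (r = -0.68, rho = -0.58, adjusted permutation p = 0.0045 and 0.025), among 20 relations. Its r was -0.51 with LIPE, -0.69 with MGLL and -0.60 with ADRB3, and it was -0.39 to -0.56 for the 5 genes once the 2 libraries most distant from the median slope were omitted. These values join libraries of both sets. Within the 6 libraries r was -0.64 with PNPLA2, -0.80 with MGLL and -0.68 with ADRB3, within the 10 it lay between -0.28 and 0.15 for the 5 genes, and none of these passed the adjustment. FFGRD replicate 3, with the highest ABHD5, MGLL and ADRB3, had the lowest span slope of the differentiated libraries (-0.086, where the others ran from 0.036 to 0.268).

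**Figure D3:**
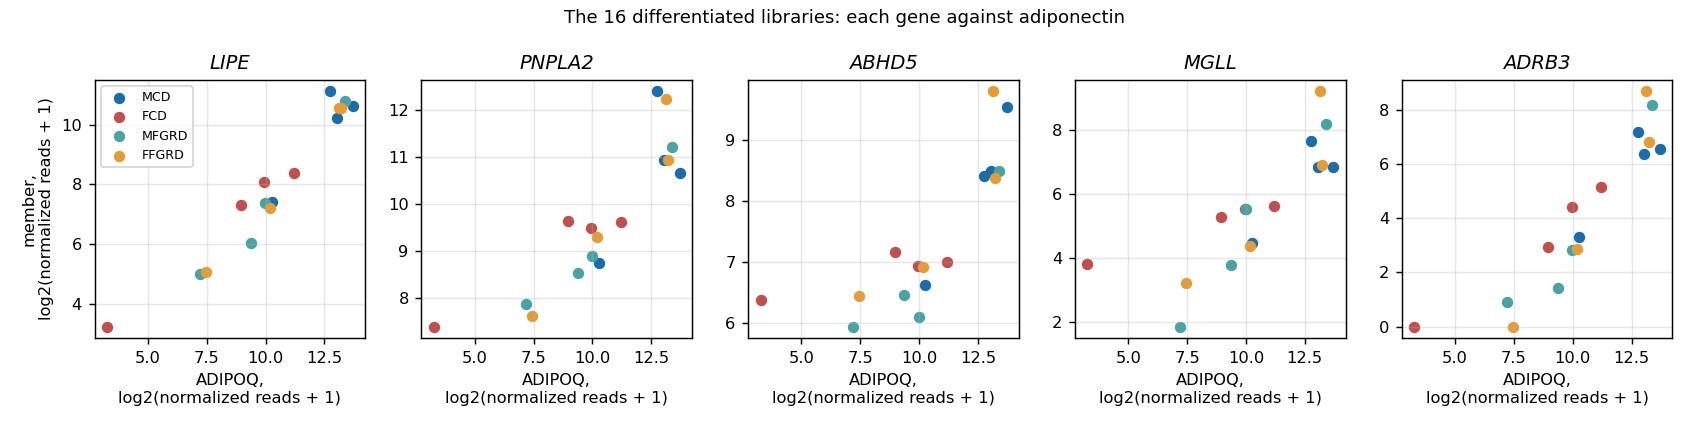
Each of 5 genes against ADIPOQ in the 16 differentiated libraries, both as log2(normalized reads + 1), coloured by group. The 6 libraries with ADIPOQ above 5000 sit apart at the upper right, in a set of MCD, MFGRD and FFGRD libraries, and FCD replicate 4 lies at the lower left.

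Over all 32 libraries, as a description that includes the difference between stages, the gene most like PNPLA2 among 10618 named genes was ADRB3 (r = 0.96 of log2 values), followed by RBM38 (0.95), an RNA-binding protein, and RXRG (0.95), a retinoid X receptor. The genes most like LIPE were ENPEP (0.95), a peptidase that cleaves angiotensin, ADPR2 (0.95) and PFKFB1 (0.95), a regulator of glycolysis. ABHD5 was most like the mitochondrial genes ACAT1 (0.92) and ETFDH (0.92) and like TBC1D20 (0.92). MGLL had less close partners, with MANEAL (0.87), TBC1D10A (0.85) and TMEM120A (0.82). Beside PNPLA2, ADRB3 was most like CITED1 (0.96), a transcriptional cofactor, and TMEM132C (0.94).

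LIPE reads were divided by Salmon over 3 transcripts that share their lower genome coordinate and differ in their upper coordinate. In the 12 libraries in which the gene reached 100, LIPE-202 held 20.8 to 56.3% of the gene's value (median 46.2%), LIPE-203 held 27.1 to 57.7% (median 35.5%) and LIPE-201 held 2.45 to 26.5% (median 16.6%). In MCD against MC each transcript was called higher by limma over single transcripts, LIPE-203 by 7.44 (SE 1.03, adjusted p = 0.0116), LIPE-202 by 6.42 (SE 0.82, adjusted p = 0.0096) and LIPE-201 by 5.69 (SE 0.94, adjusted p = 0.0217). None of the 3 reached 10 in any MC library, so they passed the filter only through MCD and a rise was built into their being tested. With PNPLA2-201 these made 4 called transcripts of the genes, where 2.83% of the 15804 transcripts tested were called, and with a pseudocount of 0.1 LIPE-201 was no longer called (adjusted p = 0.0572). In the other 3 origins no transcript of these genes was called, where 0.143%, 1.32% and 0.616% of transcripts were. ABHD5-201 was above 0 in 3 libraries only, at 314 in MCD replicate 3, where it held 42.0% of the gene's value, and MGLL-203 was at 0 in all 32. The division between transcripts that overlap is an estimate and is less certain than the sum.

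**Figure D4:**
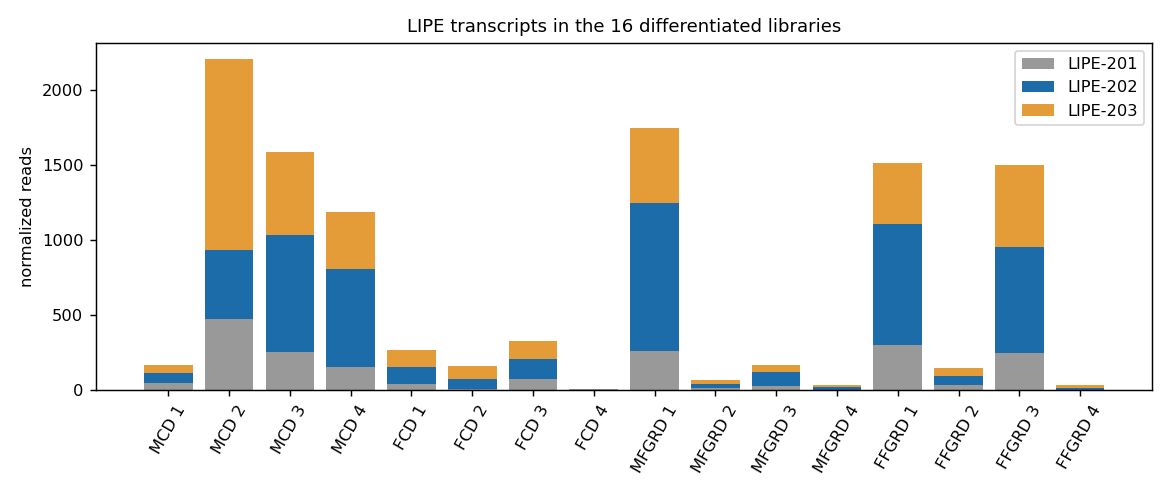
Normalized reads of the 3 LIPE transcripts, stacked, in the 16 differentiated libraries. The 6 tall bars are those of MCD 2 to 4, MFGRD 1 and FFGRD 1 and 3, LIPE-203 is the largest part in MCD 2, and FCD 4 is close to 0.

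The remaining genes of the pathway came from 5 lists. Beside each count over the 4 origins stand the 12.4% of all genes called higher and the 14.8% called lower in this fit, and genes that passed the filter on low values through the libraries of 1 stage only are set apart, since their direction was built in. Of the lipases and droplet partners, 10 were tested without this limit, of which 6 rose and 1 fell. FABP4, a fatty acid carrier that binds hormone-sensitive lipase, rose by 9.55 (SE 0.69, adjusted p = 1e-10) and was called in all 4 origins. PLIN1, the perilipin that guards the droplet, rose by 5.28 (SE 0.56, adjusted p = 3.8e-08) and was called in 3 of the 4. FABP4 reached 10 in 9 of the 16 preadipocyte libraries and PLIN1 in 15. Within some origins they therefore passed the filter only with the differentiated libraries, and their calls by origin are a description. LPL, the lipase that acts outside the cell on circulating lipid, rose by 2.70 (SE 0.54, adjusted p = 0.0003). CIDEC, which enlarges droplets, passed through the differentiated libraries only and was 3.48 higher (SE 0.61, adjusted p = 5.5e-05). The gene that fell, LIPA, the acid lipase of lysosomes, is named after its value was seen (fell by 1.07, SE 0.17, adjusted p = 2.4e-05).

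Upstream of the lipases, 1 of 4 receptor genes without this limit rose (12.4% of all genes did) and none fell. It was NPR1, the natriuretic peptide receptor, which raises cyclic GMP (2.18, SE 0.40, adjusted p = 9e-05). ADRA2B, the alpha-2B adrenergic receptor, passed through the differentiated libraries only and was 2.92 higher (SE 0.40, adjusted p = 1.8e-06), from 0 in all 16 preadipocyte libraries to a median of 7.98. Among 7 G proteins and adenylyl cyclases without this limit, none rose and 2 fell (14.8% of all genes did). ADCY3 fell by 1.19 (SE 0.24, adjusted p = 0.00034), and GNAS, the stimulatory G protein, named after its value was seen, fell by 0.78 (SE 0.22, adjusted p = 0.0063). ADCY5, through the differentiated libraries only, was 5.74 higher (SE 0.56, adjusted p = 8.3e-09), from at most 2.45 in preadipocytes to a median of 86.9. Through the preadipocyte libraries only, the estimate was -2.82 for ADCY7 (SE 0.44, adjusted p = 1.3e-05) and -2.09 for ADCY4 (SE 0.36, adjusted p = 4.3e-05).

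Of 8 genes of protein kinase A and cAMP breakdown, 3 rose (12.4% of all genes did) and none fell. PDE3B, the phosphodiesterase through which insulin lowers cAMP, rose by 3.91 (SE 0.38, adjusted p = 9.9e-09) and was called in 3 of 4 origins. PRKAR2B, a regulatory subunit of the kinase, rose by 1.14 (SE 0.34, adjusted p = 0.011) and AKAP1, an anchoring protein, by 0.79 (SE 0.18, adjusted p = 0.0011). Of the 2 tested genes of glycerol handling, GPD1, which makes glycerol 3-phosphate, rose by 3.74 (SE 0.53, adjusted p = 3.1e-06). AQP3, a channel for glycerol, passed through the differentiated libraries only and was 3.68 higher (SE 0.65, adjusted p = 6e-05). In all comparisons of growth restriction and sex, no gene of the 5 lists was called.

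**Figure D5:**
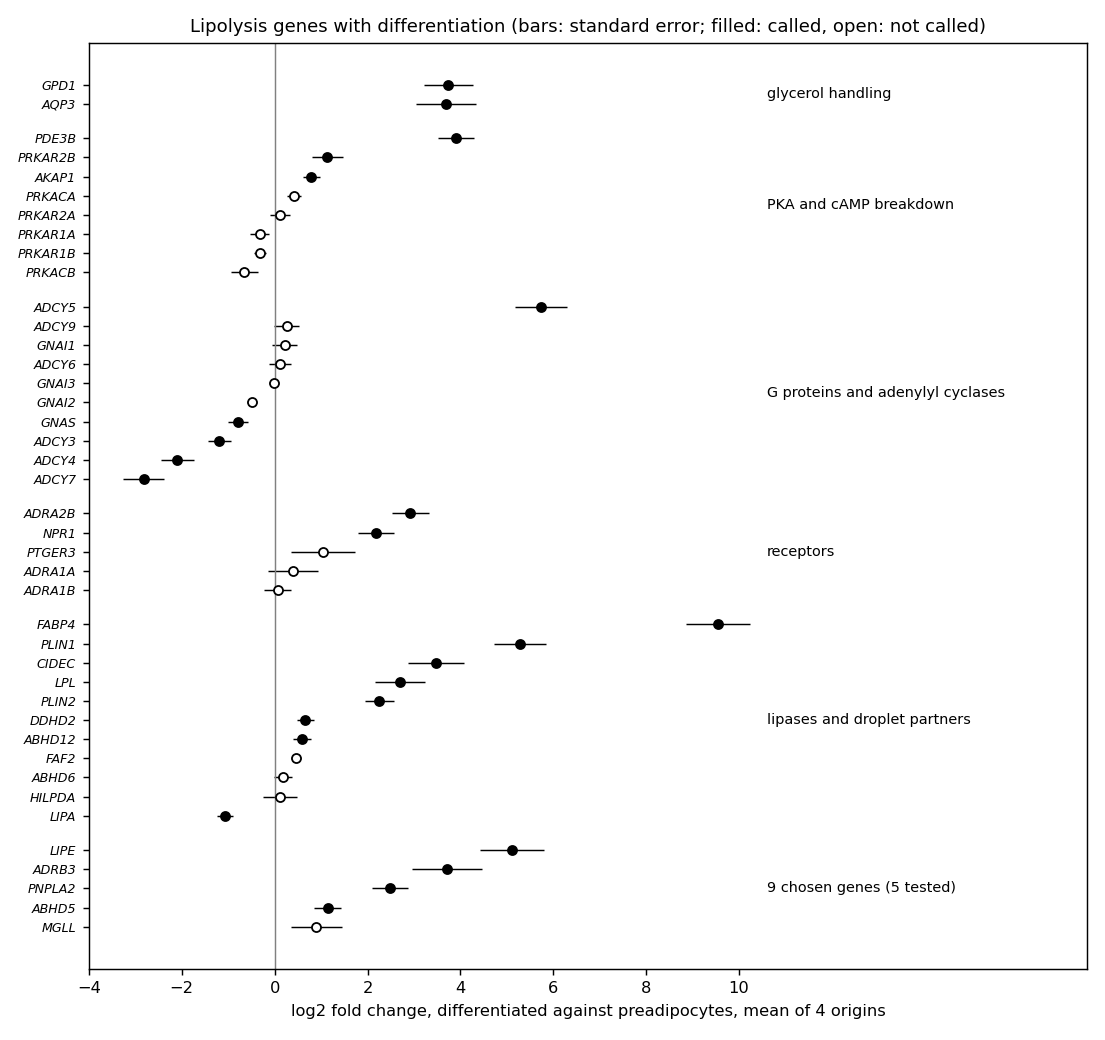
Log2 fold change with differentiation over the 4 origins for the tested genes of the lipolysis pathway, in 6 lists, with standard errors; filled points were called and open points were not. FABP4 at 9.55, ADCY5 at 5.74 and PLIN1 at 5.28 lie beyond LIPE at 5.12, and the called genes to the left of 0 are ADCY7, ADCY4, ADCY3, LIPA and GNAS.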

How the data were processed

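RNA was extracted with Trizol, libraries were prepared with the Swift RNA kit and sequencing was done on a NextSeq500. The labels name adipose tissue as the extracted material, while the study's methods name cell pellets. The authors ran Salmon on an Ensembl-annotated index of Oar_rambouillet_v1.0 and scaled the reads with DESeq2, and the deposited signal is the scaled value per transcript and library, which is no longer a whole read (FastQC 0.11.9 is named in the submitters' processing notes). Deposited columns of the authors' own comparisons (fold changes and p-values) and group means were not used, and 1 receptor gene is not reported here. Strand was not given in the sources used here. Deposited values were summed by gene, and log2(value + 1) was fitted with limma 3.58.1 in R 4.3.3 (empirical Bayes with trend) for each pair of groups over their 8 libraries, and for pooled contrasts over 32 libraries with 8 group means. Genes that reached 10 in 4 or more libraries were tested, p-values were adjusted over all of them, and a call needed an adjusted p under 0.05 and a fold change over 1.5. Fold changes on this scale understate those of low genes.

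The genes and lists were chosen with earlier results of these data known. All 9 genes were to be named with values by library, at most 4 called genes a list by size of the pooled change, and the 3 genes most correlated with each. The procedure was tested on simulated data. Their spread between libraries was smaller than that of LIPE and ADRB3 in differentiated cells, so no error rate for these genes follows from them. Libraries had 7770000 to 21260000 reads as estimated from the size of 1 read, and no pair of libraries was a duplicate (no identical values above 0). Deviations of libraries with the same number before and after differentiation correlated by 0.162 to 0.615 in MC, 0.303 to 0.508 in FC and 0.393 to 0.671 in MFGR, which was taken as pairing, and by -0.398 to 0.565 in FFGR, which was not. The alternatives were pseudocounts of 0.1 and 10, quantile normalization, no filter, a filter of 20 CPM in 3 libraries, span slope as a covariate, the highest transcript, a block for the number, all 8 groups in 1 fit and leaving out each library. The division of the differentiated libraries by ADIPOQ was added after seeing the data.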

Additional observations from a re-analysis of the deposited data

Results flagged for a closer look

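In 45 groups of 4 libraries, the highest or lowest library was compared with the others on the log2(value + 1) scale by Dixon's criterion, and 5 stood apart, where chance gives about 1 in 20 groups. That rate does not hold for the 3 groups below whose other libraries were all at 0, in which any value above 0 stands apart. PNPLA2 in FCD replicate 4 was 166, below 713, 779 and 797 in the other FCD libraries, and ADIPOQ in that library was 8.59. ADRB3 in FC replicate 1 was 12.3 and was 0 in the other 3 FC libraries. The other 3 were ADRA2A values near the floor of 3 reads: FC replicate 1 was 4.12 with the others at 0, FFGRD replicate 4 was 1.5 with the others at 0, and MC replicate 4 was 0 with the others at 1.01, 1.02 and 1.22.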

How the results depend on the processing

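Away from left-out libraries, 330 log2 fold changes kept direction and side of the threshold, 8 gained and 2 lost a call, and 4 changed sign, none of them called. With libraries left out, 826 kept both, 1 gained and 7 lost a call (all 7 ABHD5 in MCD against MC), and 14 changed sign. Counts of the named genes that were called stayed within 1.5 times, or stayed at 0, in 168 settings and moved in 4. The main count was above 0 only in MCD against MC and over the 4 origins, so most of these were 0 staying at 0. With the replicate block the counts went from 0 to 1 in MFGRD against MFGR (PNPLA2) and from 0 to 1 in FFGRD against FFGR (LIPE, adjusted p = 0.0349), where the numbers did not pair the libraries. In the latter they were also 1 with span slope (LIPE, adjusted p = 0.0386) and 2 with all 8 groups in 1 fit (LIPE and PNPLA2, adjusted p = 0.00766 and 0.0284). In MCD against MC the block added MGLL, which was also called with a pseudocount of 10 (adjusted p = 0.0423) and after quantile normalization (0.0472), and the count ran from 2 to 4 over left-out libraries. The block changed no other call. The cause was not tested. Over all libraries, 13 of 16 correlated best with their own number, and numbers in FFGR were 2 of 4. With the highest transcript, the estimate of MGLL in FCD against FC was 1.18, that of LIPE for growth restriction in differentiated cells 0.12 and that of LIPE for the response of growth-restricted against control origins 0.68. With a pseudocount of 0.1 the MFGR response of ADRB3 was 0.63. Leaving out single libraries, estimates that changed sign ranged from -0.28 to 0.35 (MGLL, FCD against FC), from -0.77 to 1.34 (MGLL) and -0.34 to 0.51 (ABHD5) in MFGRD against MFGR and from -0.69 to 1.30 (MGLL, FFGRD against FFGR). They ranged from -1.06 to 0.074 (LIPE) and -0.65 to 0.12 (PNPLA2) for growth restriction in differentiated cells and from -0.069 to 1.43 (ADRB3) for sex in them. For the MFGR response they ranged from -1.86 to 0.25 (MGLL) and -2.11 to 0.33 (ADRB3).

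Counts over all genes moved more than those of the named genes. In MCD against MC 874 genes were called, with 427 after the filter of 20 CPM, 574 with the highest transcript, 1854 with the block and 311 to 1746 over left-out libraries, the highest without MCD replicate 1. In FCD against FC 50 were called, with 29 unfiltered, 11 after the filter of 20 CPM, 434 with span slope, 197 with the block, 321 with all 8 groups and 0 to 95 over left-out libraries. In MFGRD against MFGR 393 were called, with 127, 1653, 2081 and 654 for the filter of 20 CPM, span slope, block and 8 groups, and 77 to 317 over left-out libraries. In FFGRD against FFGR 310 were called, with 31, 1894, 182 and 1315 for the same settings, 193 with the highest transcript and 26 to 259 over left-out libraries. Over the 4 origins 3466 were called and 1721 after the filter of 20 CPM. Depth limited ADRA2A and preadipocyte ADRB3, which lay near 3 reads.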
